A study of Homo sapiens with 2 samples.

Results

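SV2C, ADAMTS19 and SEZ6L are 3 of the 62704 genes counted in a pair of split-seq libraries of human cerebral organoids, 1 of cells and 1 of nuclei. They were chosen from measured values, as leading genes of a cluster of radial glia (RG)-like cells found in an earlier analysis of the cell library. Their level in that cluster is therefore given below as a description. All 3 were matched by gene name in both libraries. The organoids were grown from the human embryonic stem cell line H9, so they represent 1 genetic background. The cell library pooled unperturbed cerebral organoids (COs) of days 45, 55 and 70, grown with a commercial kit, with DISS and CONS organoids. DISS organoids were COs broken up into single cells on day 45, left to reaggregate and collected on days 48, 55 and 70. CONS organoids were COs that lost their Matrigel on day 13, were set in 3% agarose and were collected on day 55, with 5 organoids in all by the study's methods. The nuclei library was a control for dissociation and, by the study's methods, held nuclei of day 45 COs, taken from whole organoids or from their single-cell suspensions, while its treatment label also names an embedded condition. Every barcode of a library carries the same sample name, so barcodes cannot be assigned to a condition, day or organoid, and each library was described as 1 sample without replicates and without p-values.

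RG are the stem cells of the developing cortex. They express SOX2, PAX6, HES1 and GLI3, divide at the ventricular surface and give rise to intermediate progenitors and neurons. SV2C belongs to a small family of synaptic vesicle glycoproteins with SV2A and SV2B, membrane proteins best known from neurons and endocrine cells, where they take part in regulated release and serve as receptors for botulinum neurotoxin. ADAMTS19 is a member of a family of secreted, zinc-dependent proteases with thrombospondin repeats that act on the extracellular matrix. SEZ6L is a transmembrane protein with CUB and sushi domains, related to SEZ6 and SEZ6L2, which are known from neurons and their synapses.

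All 3 genes are long, protein-coding and mostly intronic on the plus strand of GRCh38 (GENCODE release 44). SV2C (ENSG00000122012) lies on chromosome 5 from 76083383 to 76353939, spans 270.6 kb with 13 exons in its canonical transcript and is 95.6% intronic. ADAMTS19 (ENSG00000145808) lies on the same chromosome from 129460281 to 129738683, spans 278.4 kb with 23 exons and is 98.1% intronic. SEZ6L (ENSG00000100095) lies on chromosome 22 from 26169462 to 26383597, spans 214.1 kb with 17 exons and is 96.7% intronic. Each has an annotated antisense partner on the minus strand. How strand was used in counting is not given in the sources used here, so reads of a gene and its partner may not be fully told apart. Counted transcripts of SV2C-AS1 were 0.616% of those of SV2C in cells and 0.417% in nuclei, and those of SEZ6L-AS1 were 0.421% and 0.276% of those of SEZ6L. ADAMTS19-AS1 reached 7.05% and 8.72% of ADAMTS19.

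The bases just upstream of the start of transcription are shown for the members with an entry in the RefSeq promoter table (GRCh38.p14), 2 of 3, because these genes led the same cluster. Each run holds the 250 bases before the start, on the plus strand, with GC boxes (GGGCGG, searched on both strands and so also printed as CCGCCC) in capitals.
SV2C, chr5:76083133-76083382: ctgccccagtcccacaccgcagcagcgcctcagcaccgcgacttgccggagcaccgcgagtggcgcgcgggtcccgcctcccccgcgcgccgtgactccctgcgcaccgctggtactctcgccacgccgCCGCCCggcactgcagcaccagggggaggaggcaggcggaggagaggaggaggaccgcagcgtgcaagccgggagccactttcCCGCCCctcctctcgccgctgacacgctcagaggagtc
ADAMTS19, chr5:129460048-129460297: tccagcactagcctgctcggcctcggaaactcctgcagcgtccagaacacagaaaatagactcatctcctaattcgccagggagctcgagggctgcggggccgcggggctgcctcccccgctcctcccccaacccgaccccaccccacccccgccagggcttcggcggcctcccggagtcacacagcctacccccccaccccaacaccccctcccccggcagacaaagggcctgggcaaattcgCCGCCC
The SV2C window had a GC content of 74.4% and 2 GC boxes, and the ADAMTS19 window 69.2% and 1, which is its last 6 bases. Across 35116 promoters of the table the median GC content was 58%, and 42.6% held at least 1 GC box. Both windows held 1 N-box (CACNAG), as did 32% of all promoters with at least 1. Neither held an E-box (CANNTG, in 61.8% of promoters), a TATA box (TATAAA, 10.7%) or CCAAT (32%), searched on both strands. These are matches of letters in a window and show no binding.

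A barcode was kept if it had over 500 genes and over 1000 transcripts, of which mitochondrial ones made up no more than 20%. This left 20178 of 1303455 in cells and 14228 of 197446 in nuclei, with medians of 2615 and 3890 transcripts. In split-seq the RNA of each cell is tagged in successive rounds of wells, and the wells of the first round receive the loaded samples. The kept cells came from 48 first-round wells (39 to 2606 barcodes each) and the nuclei from 12 (567 to 2371). Of the kept barcode names, 99 occur in both libraries. In the cells, 6574 kept barcodes share their combination of wells with a kept barcode of another of the 8 sub-libraries, as do 1272 nuclei between 2 sub-libraries. To compare barcodes at equal depth, each was thinned to 1000 transcripts, and a gene counted as detected with at least 1 of them. Intervals are exact 95% intervals, and they cover counting error only. Beside a count of 0 the limit given is 3 counts of the total, which is lower than the upper end of the exact interval. SDs between sub-libraries measure technical spread only.

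Across the cell library SEZ6L was the most often detected of the 3 genes and SV2C the least. SEZ6L had 41791 transcripts, or 2.66 per 10000 (2.63 to 2.68), and was detected in 18.5% ± 1.46 (SD, 8 sub-libraries) of thinned barcodes. ADAMTS19 had 8018 transcripts, or 0.510 per 10000, and was detected in 4.61% ± 0.509. SV2C had 5686, or 0.362 per 10000, and was detected in 3.04% ± 0.420. The 3 shares were further apart than their SDs. Without thinning the shares were 39.6%, 15.1% and 10.4%, and barcodes with SV2C had a median depth of 9878 transcripts, against 2370 for those without it. Most barcodes with the gene held a single transcript of it before thinning for SV2C (1259 of 2099) and ADAMTS19 (1770 of 3042), while the highest barcodes held 65 and 115, and 357 for SEZ6L.

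In the nuclei the order of SEZ6L over the other two was the same and all 3 levels were lower. SEZ6L was detected in 11.1% ± 0.141 (SD, 2 sub-libraries), ADAMTS19 in 1.92% ± 0.321 and SV2C in 1.63% ± 0.109 of thinned nuclei, and the exact intervals of the last pair overlapped (1.70% to 2.16% and 1.43% to 1.85%). Counts per 10000 transcripts were 1.91, 0.235 and 0.199, and the unthinned shares 25.6%, 7.35% and 5.30%. The libraries differ in kit, days, conditions and compartment, which cannot be told apart here, so the difference between them was not read further.

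RNA of all 3 genes was also found outside kept barcodes. In barcodes of 10 to 100 transcripts, too few to pass as a cell and here taken as free RNA, the cell library held 0.497 SV2C, 0.588 ADAMTS19 and 2.98 SEZ6L transcripts per 10000, and the nuclei 0.2, 0.278 and 1.91. In cells these levels were above those of all kept barcodes together, by intervals that did not overlap, as for SV2C with 0.497 (0.474 to 0.522) against 0.362 (0.352 to 0.371). In nuclei the intervals overlapped for all 3 genes. The share of all genes with such a difference was not computed. Both levels were pooled over first-round wells, and the part of the wells in the difference was not tested. In well A3 SV2C was at 2.53 per 10000 in free RNA and 2.42 in kept barcodes. In well A11 it was at 1.94 and 2.16. The choroid plexus-like clusters of the cells had SV2C in 2.2% (1.47% to 3.16%) of 1273 barcodes in cluster 7 (median depth 6496) and in 0 of 117 in cluster 15 (median depth 3626), which allows a share of up to 2.56%. Whether these cells lack SV2C was not tested, and no background share was set from them.

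Clustering of the cells left out the 3 members and their families and gave 19 clusters. Cluster 6 (1647 barcodes, median depth 2589, from 27 wells) stood apart for all 3 genes. It met the marker rule for dividing RG-like cells, with 6 RG markers (PAX6, HES1, GLI3, EMX2, PTPRZ1 and HMGA2), 3 of S phase and 7 of G2/M at 1.5 times the level of other barcodes or more. In cluster 6, SV2C was detected in 15.4% (13.7% to 17.3%), ADAMTS19 in 21.6% (19.7% to 23.7%) and SEZ6L in 57.1% (54.6% to 59.5%) of barcodes. The cluster held 9.36% of all kept transcripts, but 49.0% of those of SV2C, 44.4% of ADAMTS19 and 37.2% of SEZ6L. Genes were ranked by fold of counts per 10000 against all other barcodes, among 3635 found in at least 25% of unthinned cluster 6 barcodes. SV2C and ADAMTS19 passed this filter in cluster 6 (39.4% and 49.6%) but were below it over all barcodes (10.4% and 15.1%). Among the 3635 genes SV2C ranked 1 (9.29-fold), ADAMTS19 2 (7.74-fold) and SEZ6L 5 (5.73-fold). Between them stood KANK4 (6.46-fold) and NRG1 (5.95-fold), a ligand of ERBB receptors, and just below SEZ6L came DHRS3 (5.15-fold). The netrin receptor gene UNC5C ranked 11 (4.68-fold). As the members were chosen for such a cluster, these values describe it and test nothing.

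**Figure D1:**
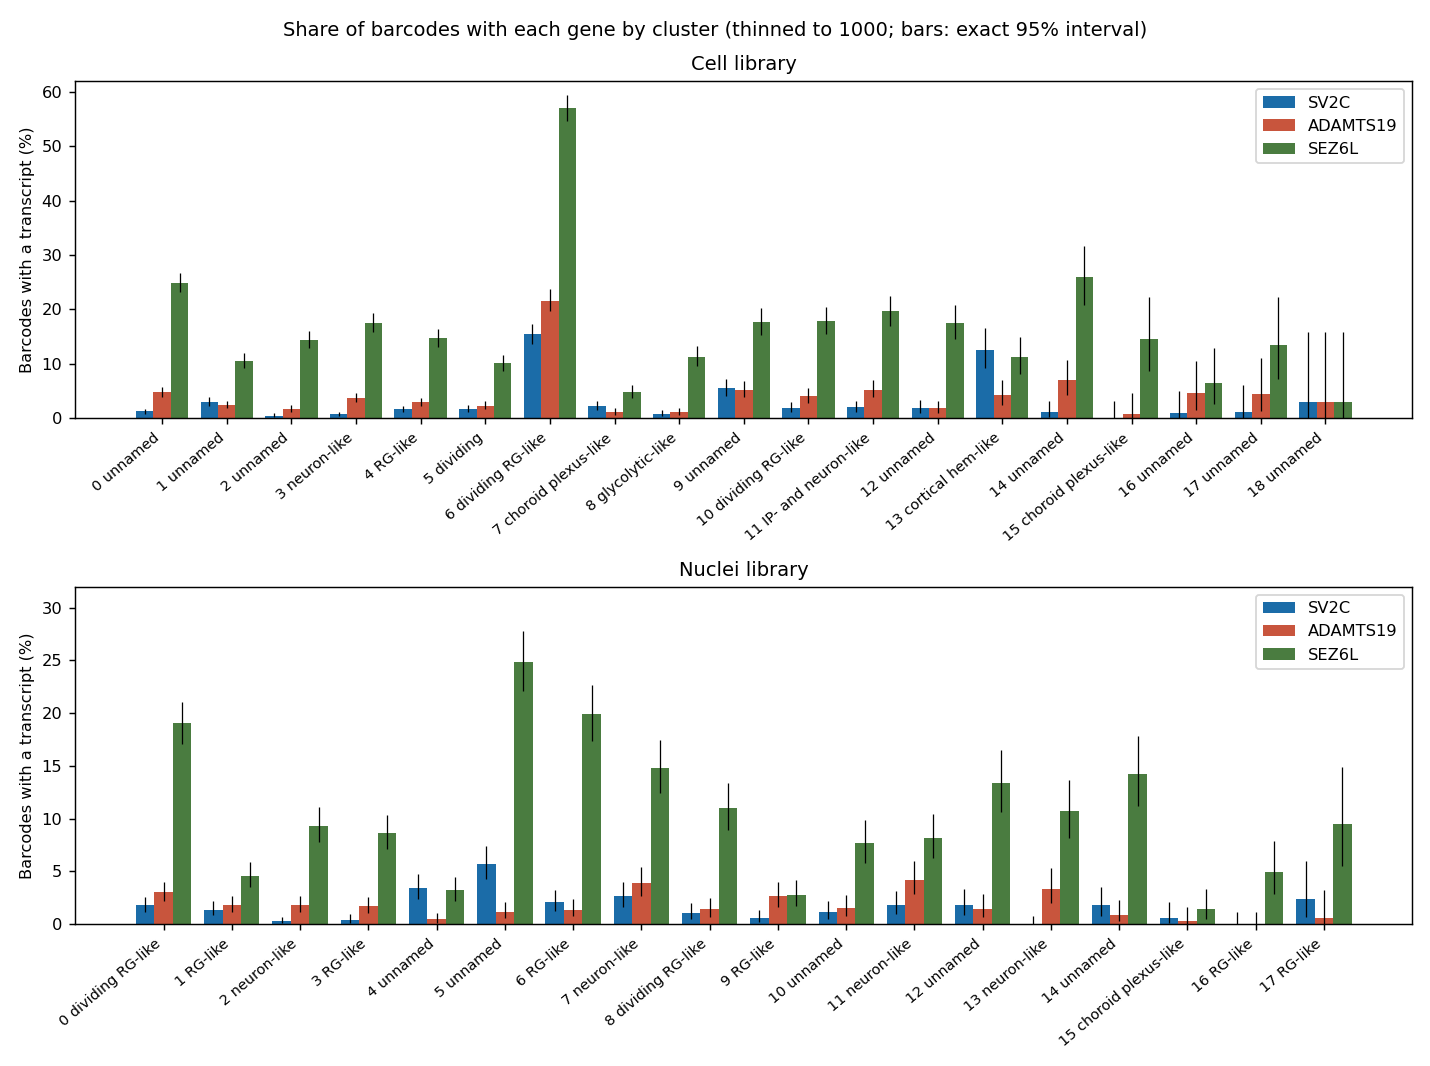
Share of barcodes (percent, thinned to 1000 transcripts) with at least 1 transcript of SV2C, ADAMTS19 or SEZ6L in each cluster of the cell library (top) and the nuclei library (bottom), with exact 95% intervals as thin black lines. In cells all 3 genes were highest in cluster 6 (15.4%, 21.6% and 57.1%), whereas in nuclei SV2C and SEZ6L were highest in unnamed cluster 5 (5.71% and 24.9%) and ADAMTS19 in neuron-like cluster 11 (4.21%).

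The profile of cluster 6 differed from that of the other RG-like and dividing clusters in its markers as well. HMGA2, a chromatin factor of early progenitors, was at 22.5 counts per 10000 in cluster 6, against 8.81 in RG-like cluster 4 and 10.5 in dividing RG-like cluster 10. HES1, a Notch target, was at 2.92 against 1.07 and 1.27. SOX2 was lower, at 1.28 against 3.34 and 3.13, as was VIM, at 1.8 against 3.45 and 3.13. MKI67, a marker of dividing cells, was at 3.41 in cluster 6, between 0.722 in cluster 4 and 10.7 in cluster 10. None of the markers used for its name was among its 10 leading genes. It is called cluster 6 below, because the usual RG markers SOX2 and VIM were not raised in it.

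The remaining progenitor clusters did not share the high levels. SV2C was detected in 1.62% of RG-like cluster 4, 1.91% of dividing RG-like cluster 10 and 1.70% of dividing cluster 5. ADAMTS19 was detected in 2.91%, 4.03% and 2.29% of the same clusters, and SEZ6L in 14.7%, 17.9% and 10.2%. Excitatory neuron-like cluster 3 had 0.736%, 3.73% and 17.5%. For ADAMTS19 and SEZ6L the 3 progenitor clusters were near the neuron-like cluster or below it.

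With cluster 6 included, the RG-like and dividing clusters (6153 barcodes) were above the neuron-like cluster (1903) for all 3 genes. SV2C was at 0.743 against 0.106 counts per 10000 (7.0-fold), ADAMTS19 at 1.03 against 0.347 (2.96-fold) and SEZ6L at 4.93 against 1.98 (2.49-fold). Of all 11272 genes detected in at least 1% of barcodes, 8.41% were 2-fold higher or more in this comparison, in which the rule had used the same cells. Without cluster 6 (4506 barcodes, an alternative added after seeing the data) the ratios were 1.24, 0.830 and 0.982. By share of thinned barcodes, SV2C was still detected in 1.71% of these 4506 barcodes against 0.736% of the neuron-like ones, ADAMTS19 in 2.91% against 3.73% and SEZ6L in 13.7% against 17.5%. For ADAMTS19 and SEZ6L the higher level in progenitors was thus not seen without cluster 6, and for SV2C it was much smaller. By counts per 10000 the SV2C intervals then overlapped, at 0.132 (0.1187 to 0.1461) against 0.106 (0.0940 to 0.1193).

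SV2C alone was also high in cluster 13, a small cortical hem-like cluster of 349 barcodes marked by RSPO2, RSPO3, WNT2B and LMX1A. The hem is the WNT-secreting edge of the cortex. SV2C was detected in 12.6% (9.31% to 16.6%) of this cluster, at 1.62 counts per 10000, and its interval overlapped that of cluster 6 (13.7% to 17.3%). ADAMTS19 was detected in 4.30% and SEZ6L in 11.2%, both below cluster 6. Of cluster 13, 62.2% came from well D12 and 19.5% from well D6, so it may stand for few of the loaded samples. SEZ6L reached 24.9% in unnamed cluster 0 and 25.9% in unnamed cluster 14 (270 barcodes), and was lowest among clusters of over 1000 barcodes in choroid plexus-like cluster 7, at 4.79%.

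The 3 genes were next described together in single barcodes. Of 20178 thinned cells, 15497 (76.8%) had none of them, 4133 (20.5%) had 1, 497 (2.46%) had 2 and 51 (0.253%) had all 3. SV2C and ADAMTS19 were found together in 86 barcodes, where 28.3 would follow from the product of their shares, a ratio of 3.04 (2.43 to 3.75). ADAMTS19 was detected in 14% of barcodes with SV2C and in 4.31% of those without it. SV2C and SEZ6L were found together in 220 barcodes, a ratio of 1.94 (1.69 to 2.21), and ADAMTS19 and SEZ6L in 344, a ratio of 2.00 (1.79 to 2.22). All 3 pairs were thus found together more often than their shares alone would give. A ratio of at least 2 was reached by 0.869% of 11271 genes with SV2C, by 0.186% with ADAMTS19 and by 0% with SEZ6L. Among these genes ADAMTS19 ranked 3 for SV2C, SV2C ranked 1 for ADAMTS19, and ADAMTS19 and SV2C ranked 1 and 2 for SEZ6L. The rule had used the same cells, so nothing is read from these ranks.

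Most of this excess was between wells and clusters rather than within them. When expected counts were summed within first-round wells, the ratio of SV2C with ADAMTS19 was 1.25 (1.00 to 1.55), that of SV2C with SEZ6L 1.15 (1.00 to 1.31) and that of ADAMTS19 with SEZ6L 1.18 (1.06 to 1.31). ADAMTS19 then ranked 1401 for SV2C, and 0.213% of genes reached a ratio of 2 with SV2C, 0.0266% with ADAMTS19 and 0% with SEZ6L. Within clusters the ratios were 1.28, 1.12 and 1.14. Within wells and clusters together they were 1.09 (0.872 to 1.35), 1.02 (0.890 to 1.17) and 1.07 (0.955 to 1.18), and all 3 intervals held 1. In barcodes of 1 well and 1 cluster, a joint detection beyond the product of the shares was therefore not detectable at this depth. Inside cluster 6, ADAMTS19 was detected in 26.4% (21.1% to 32.3%) of barcodes with SV2C and 20.8% (18.6% to 23.0%) of those without, and SEZ6L in 63.8% (57.5% to 69.7%) and 55.9% (53.2% to 58.5%), with overlapping intervals.

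**Figure D2:**
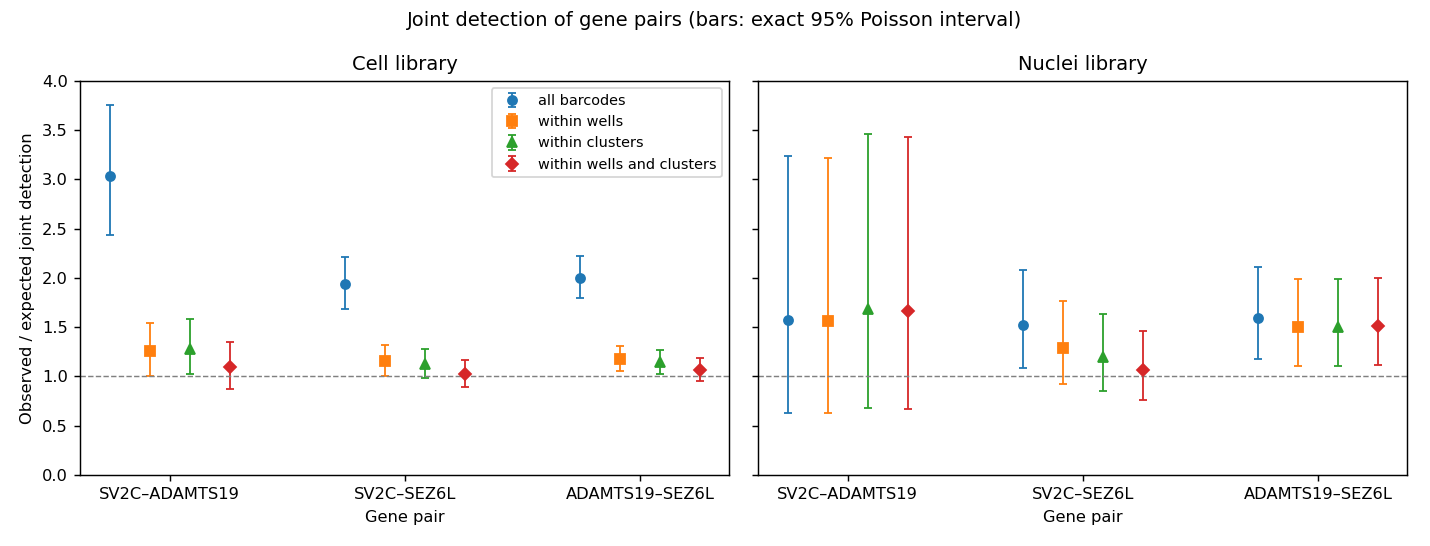
Ratio of observed to expected joint detection (vertical axis, no unit) for the 3 gene pairs in cells (left) and nuclei (right), with expected counts taken over all barcodes, within first-round wells, within clusters or within both, and exact 95% Poisson intervals as vertical lines. The dashed line is a ratio of 1; in cells the SV2C and ADAMTS19 pair went from 3.04 over all barcodes to 1.09 within wells and clusters.

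Of the nuclei, 12242 (86.0%) had none of the genes, and 91 had 2 and 1 had all 3. SV2C and ADAMTS19 were together in 7 nuclei against 4.45 expected, a ratio of 1.57 (0.632 to 3.24). SV2C with SEZ6L had a ratio of 1.52 (1.08 to 2.08), which was 1.29 (0.920 to 1.77) within wells. ADAMTS19 with SEZ6L had a ratio of 1.59 (1.17 to 2.11), and it was 1.5 (1.11 to 1.99) within wells and 1.51 (1.11 to 2.00) within wells and clusters. This was the only pair whose interval stayed above 1 within wells and clusters in either library, with 48 nuclei. Among all nuclei none of the pairs reached 2, a ratio that 2.45% of 10253 genes reached with SV2C, 0.966% with ADAMTS19 and 0.0293% with SEZ6L. Within wells these shares were 2.29%, 1.01% and 0.0195%. Wells A8 to A12 decided part of these values. Without them SV2C with SEZ6L was at 2.22, and 2.15 within wells, from 15 nuclei with both genes, and SV2C with ADAMTS19 at 0.707 and 0.701, from 1.

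All 3 genes were chosen as leading genes of an RG-like cluster of the cell library, so their marker shares in cells are descriptions and test nothing. In cells, the share of SV2C was compared between barcodes with and without each marker. It was higher, by intervals that did not overlap, with 3 of 12 RG markers, 4 of 10 S phase and 2 of 10 G2/M markers, and lower with none of these 32. Among all genes in at least 1% of barcodes, 4.48% were called higher with SV2C in this way and 3.97% lower. The RG markers were HES1 (5.83% with it against 2.78% without), GLI3 (3.51% against 2.59%) and HMGA2 (4.30% against 2.22%). With RRM2, a subunit of ribonucleotide reductase, SV2C was detected in 5.52% against 2.83%, and with the replication helicase gene HELLS in 4.91% against 2.77%. With SOX2 it was 2.64% against 3.11% and with MKI67 3.61% against 2.94%, both with overlapping intervals. SV2C was lower with 6 of 10 excitatory neuron markers, among them NEUROD6 (1.45% against 3.23%) and STMN2 (1.5% against 3.25%). Of the cortical hem markers 3 of 6 were higher, up to 12.3% (5.08% to 23.7%) in the 57 barcodes with WNT3A.

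The share of ADAMTS19 was higher with 5 of 12 RG markers (PAX6, HES1, GLI3, PTPRZ1 and HMGA2), 3 of 10 S phase markers (RRM2, CLSPN and HELLS) and 0 of 10 G2/M markers, where 4.32% of all genes were called higher and 4.87% lower. It was 8.03% with HES1 against 4.28% without, 6.69% against 3.24% for HMGA2 and 7.94% against 4.32% for RRM2. It was 4.97% with MKI67 against 4.54%, with overlapping intervals. Without wells A3, A8, A11, B9 and D3 the count of RG and division markers fell from 8 to 5. ADAMTS19 was lower with 2 of 10 neuron markers, 3 of 6 choroid plexus markers and 4 of 6 glycolytic markers. It was 2.68% with TTR, the transthyretin gene of choroid plexus, against 5.20%, and 2.41% with VEGFA against 4.99%.

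SEZ6L was higher with 6 of 12 RG markers, 5 of 10 S phase markers and 1 of 10 G2/M markers (NUSAP1), and lower with VIM (16.1% against 19.0%). Among all genes 6.9% were called higher and 8.97% lower. It was detected in 25.2% of barcodes with HES1 against 17.9%, and in 22.6% with HMGA2 against 15.8%. With TNC, a matrix gene of outer RG, it reached 33.6% (28.5% to 39.1%) of 324 barcodes against 18.3%. Of the 6 outer RG markers TNC alone was higher and ITGB5 lower (10.4% against 18.6%), and the other 4 overlapped. It was also higher with RELN (23.4% against 18.4%) and EBF3 (26.1% against 18.4%) of the Cajal-Retzius list and PPP1R17 (24.6% against 18.4%) and ELAVL4 (20.3% against 18.2%) of the intermediate progenitor list. SEZ6L was lower with all 6 choroid plexus markers and with 3 of 6 cortical hem markers. With MKI67 it was 19.7% against 18.3%, and the intervals overlapped.

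Much of this was again between wells. Within first-round wells SV2C kept 1 S phase marker (RRM2, ratio 1.27) and no RG or G2/M marker with an interval above 1, while 1.84% of all genes had one and 1.53% had one below 1. The hem markers WNT3A (3.09) and RSPO3 (1.62) also kept theirs, and STMN2 was below 1 (0.685). ADAMTS19 also kept RRM2 alone (1.23), with 1.4% of all genes called above 1 and 2% below. For ADAMTS19 2 of 6 choroid plexus, 1 of 6 cortical hem and 1 of 6 glycolytic markers lay below 1. SEZ6L kept PAX6, GLI3, EMX2 and HMGA2 among RG markers, at ratios of 1.06 to 1.13, HELLS (1.11) and TNC (1.35), with 2.32% of all genes called above 1 and 3.05% below. ITGB5 stayed below 1 (0.603). Outside these lists RELN (1.39) and EBF3 (1.5), 2 of 6 Cajal-Retzius markers, and PPP1R17 (1.26), 1 of 6 intermediate progenitor markers, also lay above 1. For SEZ6L 5 of 6 choroid plexus, 3 of 6 cortical hem and 1 of 6 mesenchymal markers lay below 1. Within cluster 6 the intervals with and without a marker overlapped for every RG and division marker examined. SV2C, for example, was detected in 19.1% (15.7% to 22.9%) of its barcodes with HELLS and 13.9% (12% to 16.1%) of those without, and in 14.4% with MKI67 and 15.8% without. For SEZ6L and NRG1 the intervals lay just apart, at 58.4% (55.8% to 60.9%) of barcodes with NRG1 and 48.6% (41.8% to 55.5%) of those without. Of the 57 barcodes of cluster 6 with NEUROD6, 3.51% (0.428% to 12.1%) had SV2C, while 15.9% (14.1% to 17.7%) of those without NEUROD6 did.

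The 3 genes were very unevenly spread over the first-round wells of the cell library. SV2C had a lowest share of 0%, a median of 2.51% and a highest share of 18.9% (well A3). It was at 0 in wells B5, C2 and D8, of 112, 79 and 69 barcodes, which allows shares of up to 2.68%, 3.80% and 4.35%. ADAMTS19 ranged from 0% (well C2, up to 3.80% allowed) through a median of 3.08% to 29.6% (well A11), and SEZ6L from 3.99% through 21.2% to 55.6% (well A11). The observed variance between first-round wells was 25.4, 29.3 and 42.3 times the binomial one for SV2C, ADAMTS19 and SEZ6L. Over the 93 second-round wells it was 2.05, 3.05 and 3.25 times, and over the 96 third-round wells 1.13, 1.12 and 1.01 times, near what random pooling gives. It was not computed for other genes, so uneven spread is not shown to be particular to the members. Markers varied widely over the first-round wells too, TTR from 1.55% (C5) to 67.2% (D10) and MKI67 from 1.01% (B12) to 31.4% (A6). The 5 wells with most transcripts of a gene held 40.3% of SV2C, 38.08% of ADAMTS19 and 33% of SEZ6L, against 9.41%, 14.4% and 24.7% of all transcripts.

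The wells with many barcodes of cluster 6 were mostly also those with the highest shares of the 3 genes. In wells A3 to A6, A9 to A11, B9 to B11 and C8 to C10, cluster 6 held 28.2% to 92.3% of barcodes, and in the other 35 wells at most 4.54%. These wells lie side by side within their plate rows. Of the 13 wells with the highest share of each gene, 12 were among them for SV2C, 13 for ADAMTS19 and 12 for SEZ6L. For SV2C, well D12, with 8.26% and 62.2% of the cortical hem-like cluster, was above wells B9 (6.22%) and B11 (6.51%), and for SEZ6L, well C2, with 31.7% of 79 barcodes, was above wells C8 (29.2%) and C9 (29.9%). Which condition, day or organoid was loaded into these wells is not in the sources used here. Free RNA of the genes varied over the same wells. In barcodes of 10 to 100 transcripts SV2C ranged from 0.0529 to 3.78 per 10000 (highest in well A10), ADAMTS19 from 0.105 to 2.92 (A3) and SEZ6L from 0.733 to 12.8 (A4), and the part of free RNA in the shares per well was not tested.

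**Figure D3:**
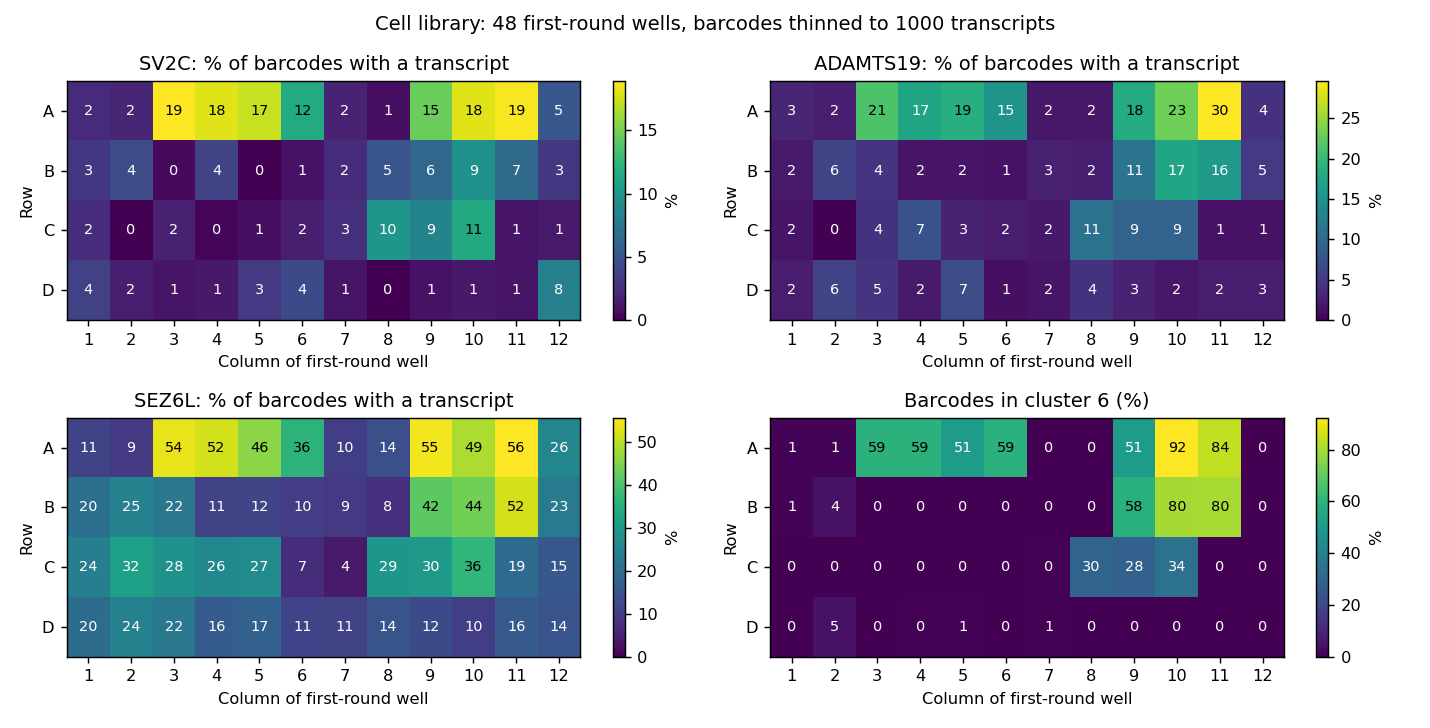
Plate maps of the 48 first-round wells of the cell library (rows A to D, columns 1 to 12). Colour and number give the percentage of thinned barcodes with SV2C, ADAMTS19 or SEZ6L and the percentage of barcodes in cluster 6; cluster 6 holds 28.2% to 92.3% of barcodes in its 13 highest wells, and of the 13 highest wells of SV2C, ADAMTS19 and SEZ6L, 12, 13 and 12 are among them.

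Cluster 6 was compared with the other barcodes of its well in the 14 wells with at least 10 barcodes on each side, which are the wells named above without A10 (3 other barcodes), and wells B2 and D2. In well A3, SV2C was detected in 26.8% of cluster 6 and 7.46% of the other barcodes, ADAMTS19 in 32% and 5.97%, and SEZ6L in 76.3% and 20.9%. In well A11 the shares were 20.9% and 7.46% for SV2C, 32.2% and 16.4% for ADAMTS19, and 62% and 22.4% for SEZ6L. In well B11 SV2C differed little, and the shares of the 3 genes were 6.64% and 5.97%, 17.3% and 10.5%, and 55.4% and 38.8%. Of the 14 wells, cluster 6 was higher in 14 for SV2C, 13 for ADAMTS19 and 13 for SEZ6L, but the exact intervals were apart in only 4, 1 and 8. The genes were chosen as leading genes of such a cluster in this same library, so the counts describe it and test nothing. In the other barcodes of these 14 wells SV2C was detected in up to 10.1% (well A4), above its share of 3.04% in the whole library, and the free RNA of well A4 was 2.81 SV2C transcripts per 10000.

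**Figure D4:**
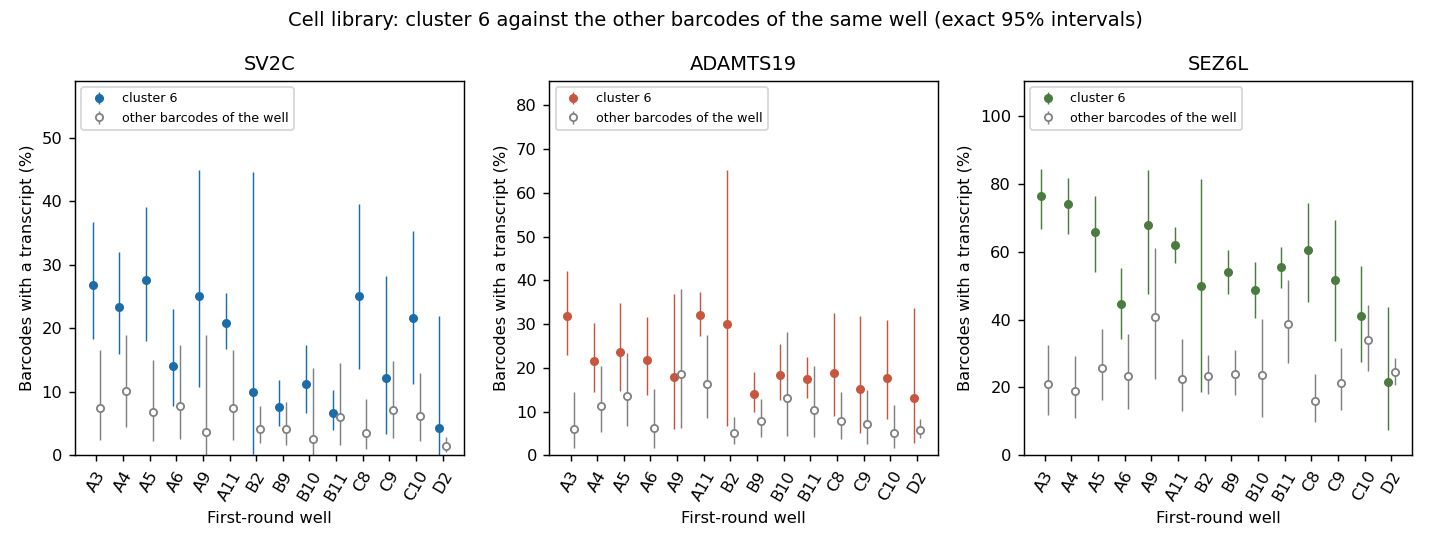
Share of thinned barcodes (percent) with SV2C, ADAMTS19 and SEZ6L in cluster 6 (filled) and in the other barcodes of the same well (open), for the 14 first-round wells with at least 10 barcodes of each; vertical lines are exact 95% intervals. Filled points lie above open ones in 14, 13 and 13 wells, with intervals apart in 4, 1 and 8.

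The nuclei library, which had no part in the choice of the genes, showed no cluster that was highest for all 3. SV2C and SEZ6L were highest in cluster 5 (893 nuclei), at 5.71% (4.28% to 7.44%) and 24.9% (22.1% to 27.8%). Its leading genes were LHX1-DT, RELN, EBF3, GFRA1 and UNC5C. RELN and EBF3 are markers of Cajal-Retzius cells, early neurons of the cortical surface, and 4 excitatory neuron markers (GRIA2, STMN2, DCX and SLC17A6) passed the naming thresholds. It stayed unnamed because its 10 leading genes held 2 Cajal-Retzius markers and none of the excitatory neuron list. Within it, SV2C was detected in 9.63% (6.39% to 13.8%) of the 270 nuclei with GRIA2, an AMPA receptor subunit of neurons, and in 4.01% (2.61% to 5.87%) of the others. NEUROD6, the other neuron marker examined there, was in only 12 nuclei, and none of them had SV2C (exact interval up to 26.5%). For ADAMTS19 and SEZ6L the intervals with and without GRIA2 overlapped. ADAMTS19 was at 1.12% in cluster 5 and was highest in neuron-like clusters 11 (4.21%) and 7 (3.86%). In neuron-like cluster 7 all 3 shares were above those of the library, with SV2C at 2.62% (1.63% to 3.97%) and SEZ6L at 14.8% (12.4% to 17.5%). SEZ6L was also high in dividing RG-like cluster 0 (19.1%) and RG-like cluster 6 of the nuclei (19.9%), of which 52.5% came from well A10, but was at 4.59%, 8.60% and 2.75% in RG-like clusters 1, 3 and 9. Choroid plexus-like nuclei had SEZ6L in 1.44%.

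For SV2C and ADAMTS19, RG-like and dividing nuclei were not above neuron-like nuclei. SV2C was at 0.157 counts per 10000 in the former (7043 nuclei) and 0.150 in the latter (3276), a ratio of 1.05. ADAMTS19 was at 0.222 and 0.389, a ratio of 0.572. SEZ6L was at 2.26 and 1.37, a ratio of 1.66, but was detected in similar shares of thinned nuclei, 11.02% and 10.6%, and its share was higher in progenitor clusters in 3 of 12 wells. Cluster 5, with its neuron markers, was on neither side, and its 0.527 SV2C and 4.25 SEZ6L counts per 10000 were above both. None of the 3 reached the 2-fold difference that 16.8% of 10254 genes reached.

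Marker by marker, SV2C in nuclei was higher with 0 of the 32 RG and division markers, where 1.87% of all genes were called higher and 0.858% lower. It was higher with RELN (6.88% against 1.48%), OTX2 (4.10% against 1.57%) and LMX1A (3.43% against 1.54%). Each was 1 of 6 markers of its list, Cajal-Retzius, choroid plexus and cortical hem in this order. All 3 stayed above 1 within wells, at ratios of 4.18, 2.37 and 1.99, with 2.64% of all genes called higher and 1.43% lower. Within wells 1 of 6 inhibitory lineage markers also lay above 1. ADAMTS19 was higher with HMGA2 alone of the 32 (2.31% against 1.62%), with 0.966% of all genes called higher and 1% lower. Within wells 0 of the 32 lay above 1 and 1 of 10 G2/M markers lay below it (1.65% of all genes higher and 2.17% lower). There 1 of 10 excitatory neuron markers lay above 1, and 3 of 6 choroid plexus and 2 of 6 cortical hem markers below. ADAMTS19 was found in 0 of 412 nuclei with CLIC6 and 0 of 700 with RSPO2, which allows up to 0.728% and 0.429%. SEZ6L was higher with 6 of the 32, among them RRM2 (14.1% against 10.7%) and HELLS (14.2% against 10.7%), and lower with HES5, with 4.81% of all genes called higher and 4.64% lower. Within wells MCM5 alone of the 32 kept an interval above 1 (1.38). Without wells A8 to A12 the count was 0 of the 32. SEZ6L was also higher with 3 of 6 Cajal-Retzius markers, among them RELN (17% against 10.9%) and EBF3 (21.2% against 10.8%). The same held for 2 of 6 outer RG markers, among them TNC (24.5% against 11%), and 2 of 10 excitatory neuron markers. SEZ6L was lower with 4 of 6 choroid plexus, 2 of 6 cortical hem and 1 of 6 intermediate progenitor markers. Within wells RELN, EBF3 and TNC stayed above 1, at ratios of 1.63, 1.7 and 1.8, where 3.62% of all genes were called higher and 3.7% lower. By list, 3 of 6 Cajal-Retzius, 2 of 6 outer RG, 3 of 10 excitatory neuron and 1 of 6 cortical hem markers lay above 1. Below 1 lay 4 of 6 choroid plexus and 2 of 6 cortical hem markers.

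SEZ6L also differed between the 12 first-round wells of the nuclei. Its share had a lowest value of 6.06%, a median of 7.43% and a highest of 20.5%, and only wells A8, A9 and A10 (19.5%, 20.5% and 17%) were above 9.70%. In these wells SEZ6L was high in the progenitor clusters, at 25.3% (22.1% to 28.6%), 26.1% (22.9% to 29.5%) and 23.0% (20.4% to 25.6%). Its share in neuron-like clusters of the same wells was 9.67%, 10.3% and 8.03%. In the other 9 wells the progenitor clusters had 2.69% to 7.50% and the neuron-like ones 7.20% to 14.6%, and in 5 of them the progenitor interval lay wholly below the neuron interval. The clusters of the progenitor class were unevenly spread over the wells. SEZ6L was not compared between wells within single clusters, so the part of this spread in the difference was not tested. Dividing RG-like cluster 0 (SEZ6L in 19.1%) came to 21.7% from A8 and 20.4% from A9, and RG-like cluster 6 (19.9%) to 52.5% from A10, whereas RG-like cluster 9 (2.75%) came to 48.8% from A11 and 41.2% from A12, and RG-like clusters 3 (8.60%) and 1 (4.59%) to 34.2% and 24.4% from A7. Free SEZ6L RNA was 2.99, 3.6 and 2.89 per 10000 in wells A8 to A10 and 1.19 to 1.62 in the others. Both kinds of nuclei of a well share this free RNA, and its part in the difference between wells was not tested.

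SV2C varied less over the nuclei wells, from 0.523% through a median of 1.5% to 3.28% in well A10, where it was 2.83% in progenitor and 2.92% in neuron-like clusters. ADAMTS19 varied least, from 1.01% through 1.83% to 2.57%. The variance between first-round wells was 6.62 times the binomial one for SV2C, 1.62 times for ADAMTS19 and 41.2 times for SEZ6L. Cluster 5 was above the other nuclei of its well for SV2C in 11 of 12 wells and for SEZ6L in 12 of 12, with intervals apart in 4 and 9, but for ADAMTS19 in 3 of 12. Cluster 5 was taken for these counts because the summed shares of the 3 genes were highest in it, so this too is a description and tests nothing.

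**Figure D5:**
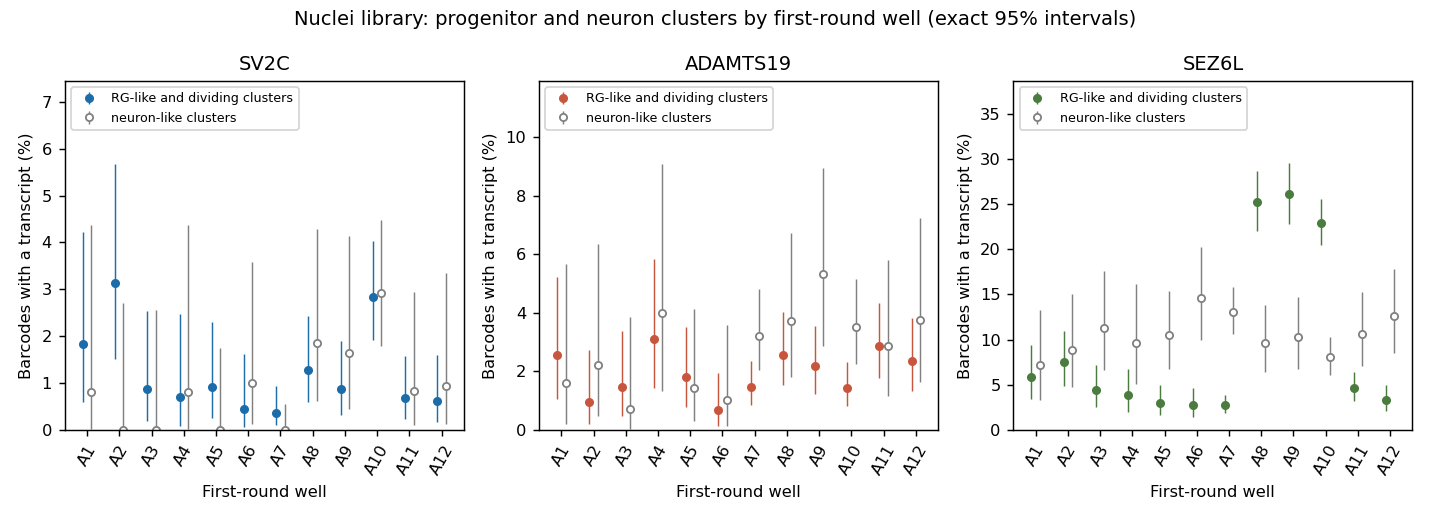
Share of thinned nuclei (percent) with SV2C, ADAMTS19 and SEZ6L in RG-like and dividing clusters (filled) and neuron-like clusters (open) in each of the 12 first-round wells of the nuclei library; vertical lines are exact 95% intervals. SEZ6L is at 23.0% to 26.1% in the progenitor clusters of wells A8 to A10 and at 2.69% to 7.50% in those of the other 9 wells.

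The 3 genes were chosen as leading genes of a cluster of the cell library, so a contrast with their relatives in it tests nothing. These relatives showed smaller folds in cluster 6. SV2A and SV2B, the paralogs of SV2C, were at 0.565 and 0.290 times the level of other barcodes there. Their vesicle partners were near or below it, with SYT1, a calcium sensor of release, at 1.22, SYP at 1.01 and the fusion gene SNAP25 at 0.431. SEZ6 and SEZ6L2 were at 0.837 and 0.488, and the related sushi-domain genes CSMD1, CSMD2 and CSMD3 at 1.29, 1.41 and 1.19. Of the 19 ADAMTS genes, ADAMTS6 (2.17), ADAMTS18 (2.04), ADAMTS9 (1.94) and ADAMTS15 (1.77) came nearest to ADAMTS19 in fold. ADAMTS6 (3.3 counts per 10000) and ADAMTS9 (3.08) had their second highest level of the 19 clusters in cluster 6, while ADAMTS1 was at 0.185. In cluster 5 of the nuclei, SV2B was at 8.04, CSMD1 at 6.41 and SEZ6L2 at 2.11 times the level of other nuclei, beside SV2C at 3.01 and SEZ6L at 2.45, and the vesicle genes SYN1 and SNAP25 were at 3.34 and 2.04. SV2B had only 264 transcripts in the nuclei.

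The genes most like each member over clusters were not the other members. Likeness was Pearson's r of log2(counts per 10000 + 0.1) over the 19 clusters of cells, among 11272 genes. The clusters share a library and differ in size, so r is a description. For SV2C the highest were GRIK1 (0.947), UNC5C (0.903) and LYPD6B (0.846), for ADAMTS19 CADPS (0.776), VPS35L (0.753) and ASTN2 (0.752), and for SEZ6L KANK4 (0.892), SEL1L3 (0.847) and ARMH4 (0.835). SV2C had an r of 0.609 with ADAMTS19 and 0.309 with SEZ6L, and ADAMTS19 had 0.627 with SEZ6L. Over the 18 clusters of nuclei the highest were CHN1 (0.729) for SV2C, ZFP90 (0.803) for ADAMTS19 and RAB11FIP3 (0.809) for SEZ6L. Between members r was 0.0303 for SV2C and ADAMTS19, 0.586 for SV2C and SEZ6L and 0.198 for ADAMTS19 and SEZ6L.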

How the data were processed

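The authors tagged fixed cells and nuclei by split-seq with Parse Biosciences Evercode kits (WT for cells, WT Mini for nuclei) and deposited unfiltered matrices of transcript counts per barcode and gene, on GRCh38, made with the spipe pipeline of Parse Biosciences by the study's methods, with a table of barcodes and their wells. The counts are whole numbers without normalization. The 3 genes and all gene lists were chosen with earlier results of these data known. Named genes are the members, their families, the listed markers, NRG1 and UNC5C, and the genes most like each member over clusters, with further leading genes of cluster 6 and cluster 5 named after their values were seen. Barcodes were filtered as in the report and thinned without replacement to 1000 transcripts (seed 1). Clusters came from 2000 highly variable genes, 30 principal components, 15 neighbours and Leiden resolution 1 (scanpy 1.11.5, Python 3.11.15, numpy 2.4.6, scipy 1.17.1). A cluster was named from at least 3 markers of a list at 1.5 times the other barcodes and in 25% of the cluster. It stayed unnamed if lists of different classes reached 3 (RG, S phase and G2/M together, or intermediate progenitor and excitatory neuron, counted as 1 class), if its 10 leading genes held more markers of other lists than of its own, or if it was shallow with none of its own among them. Shallow means a median depth below 1/3 of that of the library. Scrublet marked 0 barcodes in both libraries, so its calls were not used and doublets were kept, and an alternative left out the 5% of cells (1009) and 3% of nuclei (427) with the highest scores. With 1 sample per library no test was made. Shares have exact binomial (Clopper-Pearson) and counts exact Poisson intervals at 95%. The steps were tested on simulated data. Kept barcodes held 157306492 transcripts in cells and 72162726 in nuclei.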

Additional observations from a re-analysis of the deposited data

Results flagged for a closer look

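Barcodes of 10 to 100 transcripts, which the filter left out of all shares and clusters, held all 3 genes above the level that a count of 0 would allow (0.000874 per 10000 in cells and 0.00458 in nuclei). In the 1022725 such barcodes of the cell library, SV2C was at 0.497, ADAMTS19 at 0.588 and SEZ6L at 2.98 transcripts per 10000, from 1708, 2019 and 10244 transcripts. In the 167580 of the nuclei library they were at 0.2001, 0.278 and 1.91, from 131, 182 and 1250 transcripts. Any gene with more than 3 transcripts there passes this limit, so it shows only that they were present. Their part in the detection rates of kept barcodes was not tested.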

How the results depend on the processing

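Of 162 values recomputed under an alternative, 89 stayed within the limit set for them, and 73 moved by more. For shares and ratios the limit was the interval of the main value. For counts of markers, which have no interval, it was a change of 1.5 times, or any change to or from a count of 0. Joint detection of SV2C with ADAMTS19 in nuclei went from above 1 to below 1 without the 5 wells named below, to 0.707 over all barcodes and 0.701 within wells, with 1 nucleus left that held both, and its interval had held 1 before. No other ratio of joint detection crossed 1. Without cluster 6 the progenitor to neuron ratios of ADAMTS19 and SEZ6L in cells went below 1, to 0.830 and 0.982. Leaving out the highest doublet scores, a limit of 10% mitochondrial transcripts, another seed, Leiden resolution 0.5 and the expectation within wells and clusters moved none. Shares of SV2C, ADAMTS19 and SEZ6L in cells were 10.4%, 15.1% and 39.6% without thinning, 5.44%, 8.22% and 29.2% at 2000 transcripts, 2.40%, 3.28% and 14.2% with the looser filter and 700 transcripts, and 0.431%, 0.486% and 4.92% when 2 transcripts were required. In nuclei they were 5.30%, 7.35% and 25.6%, then 2.98%, 3.88% and 18.9%, then 1.06%, 1.33% and 8.79%, and 0.267%, 0.197% and 3.34%. Without the 5 wells with most transcripts of the members (A3, A8, A11, B9 and D3 of the cells, A8 to A12 of the nuclei), an alternative added after seeing the data, ADAMTS19 and SEZ6L were at 4.03% and 17.1% in cells, and the 3 genes at 1.33%, 1.54% and 7.33% in nuclei. Joint detection in cells was 1.28, 1.12 and 1.14 within clusters. Without thinning it was 1.75, 1.40 and 1.40 within wells, and that of ADAMTS19 with SEZ6L over all barcodes was 1.73, and 1.69 at 2000 transcripts. In nuclei without the 5 wells SV2C with SEZ6L was at 2.22, and 2.15 within wells. The number of the 32 RG and division markers with a higher share of SV2C, ADAMTS19 and SEZ6L in cells was 32, 32 and 32 without thinning and 20, 16 and 23 at 2000 transcripts, and 5 for ADAMTS19 without the 5 wells. In nuclei it was 29, 30 and 30 without thinning, 13 for SEZ6L at 2000, and 1, 0 and 0 without the 5 wells. The counts without thinning mix co-detection with depth. At Leiden resolution 2 the highest cluster had SV2C in 19.8% and SEZ6L in 60.9% of cells, and the 3 genes in 7.77%, 7.19% and 29.2% of nuclei. The highest well had SV2C, ADAMTS19 and SEZ6L in 64.1%, 74.4% and 79.0% of cells without thinning and 41.9%, 36.3% and 75.3% at 2000, with SV2C in 29.3% and SEZ6L in 71.6% of RG-like clusters only. In nuclei it had 11%, 10.3% and 47.3% without thinning, 5.68%, 5.03% and 32.5% at 2000 and SEZ6L in 26.1% of RG-like clusters only. No paired analysis was possible because each library is 1 sample and no groups were compared. At 1000 transcripts a gene at 0.362 per 10000 is seen in few barcodes, so absence from a barcode does not show that the gene is off.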

Other observations

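The wells of the cell library, which carry no condition in the labels, fell into separate sets by their share of barcodes in cluster 6. In descending order it was 92.3% in A10, 83.7% in A11, 80.2% in B11, 80.0% in B10, 59.5% in A4, 59.2% in A3, 59% in A6, 58.5% in B9, 50.9% in A9, 50.7% in A5, 34.5% in C10, 29.8% in C8 and 28.2% in C9. After a gap it was 4.54% in D2, 4.39% in B2, 0.913% in D5, 0.904% in A2, 0.87% in A1, 0.866% in B1, 0.541% in D7, 0.439% in D4, 0.362% in C7, 0.313% in C6, 0.18% in D12, 0.17% in D11, 0.157% in D3 and 0.155% in C5. The other 21 wells (A7, A8, A12, B3, B4, B5, B6, B7, B8, B12, C1, C2, C3, C4, C11, C12, D1, D6, D8, D9 and D10) had no barcode of this cluster. The numbers of barcodes in the 13 highest wells, in the same order, were 39, 412, 338, 190, 195, 164, 156, 402, 55, 150, 148, 161 and 117. The corresponding shares of barcodes with SEZ6L were 48.7%, 55.6%, 52.1%, 43.7%, 51.8%, 53.7%, 35.9%, 41.5%, 54.6%, 46%, 36.5%, 29.2% and 29.9%. Those with ADAMTS19 were 23.1%, 29.6%, 16%, 17.4%, 17.4%, 21.3%, 15.4%, 11.4%, 18.2%, 18.7%, 9.46%, 11.2% and 9.4%, and those with SV2C were 18%, 18.7%, 6.51%, 9.47%, 18%, 18.9%, 11.5%, 6.22%, 14.6%, 17.3%, 11.5%, 9.94% and 8.55%.

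In the nuclei, the share of progenitor-cluster barcodes with SEZ6L fell into separate sets too. From well A1 to A12 it was 5.86%, 7.5%, 4.39%, 3.81%, 2.94%, 2.69%, 2.73%, 25.3%, 26.1%, 23%, 4.61% and 3.27%. In neuron-like clusters of the same wells it was 7.2%, 8.89%, 11.3%, 9.6%, 10.5%, 14.6%, 13%, 9.67%, 10.3%, 8.03%, 10.7% and 12.6%, with no such separation. What was loaded into the wells is not in the sources used here, and the sets were not compared by a test.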
